A study of Mus musculus with 12 samples.

Results

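The genes that encode the proteins of the cytosolic ribosome were followed in MC3T3-E1 cells on titanium. They were taken as the protein-coding genes whose GENCODE M21 symbol starts with Rpl or Rps and a digit, with Rplp0, Rplp1, Rplp2 and Rpsa, and without the ribosomal S6 kinases and pseudogenes. This gave 86 of the 52654 genes counted in every library, and 82 of the 86 held enough counts to be tested among 13340 genes. The rule also takes in Rps19bp1, which encodes a binding partner of a ribosomal protein, and leaves out ribosomal proteins under other names, such as Fau and Rack1, which are described separately.

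MC3T3-E1 subclone 14 is a line of mouse preosteoblasts from the calvaria. The 4 groups of 3 libraries were cells co-cultured with osteoclasts, on titanium with nanotopography or on control titanium, and cells grown alone, called isolated, on either surface. All cells were grown on discs for 7 days in medium with 5 µg/mL ascorbic acid plus β-glycerophosphate at 7 mM. For the last 2 days the co-cultures shared their medium with osteoclasts made from RAW 264.7 macrophages by 50 ng/mL RANKL, held above them in inserts with 0.4 µm pores. RANKL and the insert are recorded for co-cultures only, so effects of osteoclasts, RANKL and insert cannot be told apart. The labels call the replicates biological triplicates of 1 subclone.

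A ribosome has a small 40S subunit, which decodes the messenger RNA, and a large 60S subunit, which joins the amino acids and holds the stalk that calls in elongation factors. Cells make the proteins in large amounts; osteoblasts, which secrete much collagen, depend on this output. In mammals the messenger RNAs of ribosomal proteins typically begin with a C and a run of pyrimidines, the terminal oligopyrimidine tract, through which mTORC1 and LARP1 control their translation and stability. Most of these genes also left many processed pseudogenes in the genome, which are near-identical copies without introns.

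The start of 8 members is shown because the results turn on them: Rps2, Rplp0, Rplp2, Rps16 and Rps26 had some of the largest decreases, Rpl22 and Rpl22l1 the largest increases, and Rpl4 stayed level while being abundant. Each line gives 30 bases read 5′ to 3′ on the gene's strand around the most upstream start in RefSeq (GRCm38.p6). Capitals mark a C followed by at least 6 bases that are each C or T within 25 bases of that start, and lines with no capitals hold no such run.
Rps2 (chr17:24720053-24720082, plus strand): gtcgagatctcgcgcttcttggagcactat
Rplp0 (chr5:115559457-115559486, plus strand): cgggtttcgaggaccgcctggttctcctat
Rps16 (chr7:28350679-28350708, plus strand): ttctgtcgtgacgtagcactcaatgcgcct
Rpl22 (chr4:152324426-152324455, plus strand): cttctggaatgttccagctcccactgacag
Rplp2 (chr7:141447637-141447666, plus strand): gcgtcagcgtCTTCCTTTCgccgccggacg
Rps26 (chr10:128626483-128626512, minus strand): gccgccggatCCTCTTTCgagtcttggctc
Rpl4 (chr9:64173360-64173389, plus strand): agtgacaagtCTTTCCTTTTCCTgtgggag
Rpl22l1 (chr3:28805501-28805530, plus strand): caagcccgttCTCTTCCCacggctgcagct
Of the 66 members with an entry, 39 (59.1%) held such a run, against 6677 of 27025 genes (24.7%) in the same table. RefSeq and GENCODE place the start of some genes differently, Rps2 and Rpl22 among them, and the start in use in these cells was not measured. In co-culture on nanotopography the 38 tested members with a run had a median log2 fold change of -0.70 and the 24 without one -0.55.

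Between 5866842 and 9207831 reads were counted per library. CPM values are counts scaled to the library total and by TMM, and a log2 fold change is given with its approximate standard error and a p from edgeR's quasi-likelihood test, adjusted by Benjamini-Hochberg over all tested genes. A gene is called at an adjusted p below 0.05. A GC-adjusted value comes from the same fit after trends of counts with transcript GC content and length had been taken out library by library. Gene coordinates are those of GENCODE M21 on GRCm38 (mm10). The 10 osteoblast markers, Col1a1 and Col1a2 foremost, summed to 57669.8 to 71708 CPM in co-culture on nanotopography, 93151 to 106239 in the co-cultures on control titanium; isolated cells had 105587 to 110343 on nanotopography and 104881 to 116402 on control titanium. The 15 macrophage and osteoclast markers summed to 180.3 to 254 CPM in co-culture on nanotopography, 192 to 206 in the co-cultures on control titanium; isolated cells had 182 to 202 on nanotopography and 192 to 201 on control titanium. 13 of the 15 had their highest group mean in co-culture on nanotopography. Most of the sum was Ctsk and Mmp9; Ptprc, Tyrobp, Atp6v0d2 and Dcstamp were at 0 in both isolated groups and averaged 2.07, 0.654, 3.46 and 1.25 CPM in co-culture on nanotopography, and Calcr was at 0 in all libraries. Mitochondrial ribosomal RNA took 8.66 to 15.8% of counts in co-culture on nanotopography and 4.52 to 9.80% in the other libraries. Gm26917 and Gm42418, which overlap ribosomal RNA sequence, took 0.350 to 0.80% in co-culture on nanotopography, 1.52 to 2.08% in the co-cultures on control titanium, 3.66 to 8.33% in isolated cells on nanotopography and 2.77 to 5.46% on control titanium. The part of these values in the results was not tested.

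Ribosomal protein genes took the smallest share of the library in co-culture on nanotopography. They held 0.561, 0.733 and 0.669% of counts there and 0.987, 1.15 and 1.01% in the co-cultures on control titanium. Isolated cells had 1.24, 1.16 and 1.20% on nanotopography and 0.977, 1.03 and 1.15% on control titanium. The 3 libraries of co-culture on nanotopography lay below each of the other 9, and the other 9 lay between 0.977 and 1.24%. In bulk RNA, fewer copies per cell and a larger amount of other RNA cannot be told apart. Annotated pseudogenes that share 50-base stretches with a member held about as many counts: 0.603, 0.826 and 0.728% in co-culture on nanotopography, and 1.11, 1.33 and 1.15% in the co-cultures on control titanium. For isolated cells they were 1.08, 1.00 and 1.03% on nanotopography and 0.808, 0.883 and 1.04% on control titanium. How reads that align to a gene and its copy were counted is not given in the sources used here.

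**Figure D1:**
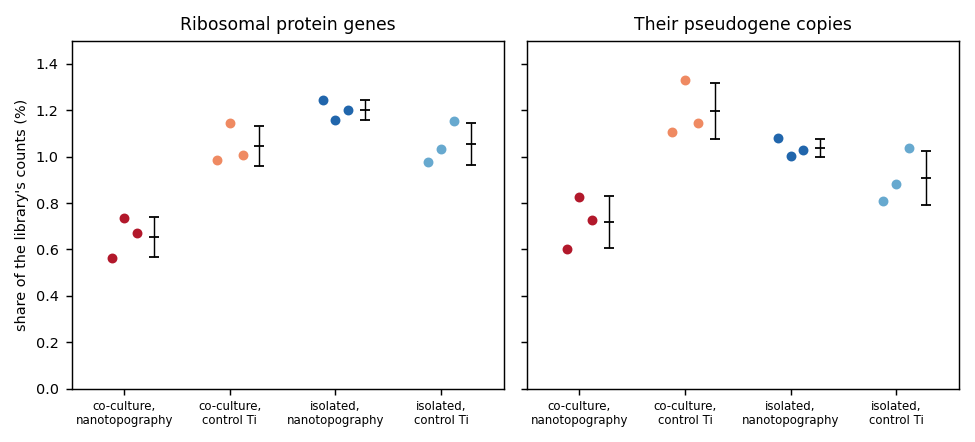
Share of each library's counts (%, vertical axis) on the 86 ribosomal protein genes (left) and on their annotated pseudogene copies (right), by group; points are replicates 1 to 3 and the bar is the mean ± SD (n = 3). The co-culture libraries on nanotopography lie at 0.561 to 0.733% for the genes and 0.603 to 0.826% for the copies. For the genes all other libraries lie higher; for the copies the ranges of co-culture on nanotopography and isolated cells on control titanium overlap.

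Levels per kilobase of coding sequence spanned a wide range. Over all 12 libraries Rpl32 averaged 2118 CPM per kilobase, Rpl41 1749.8, Rplp0 1191, Rpl4 1108 and Rps15 907. The lowest tested members were Rpl36al at 2.93, Rpl23a at 3.95 and Rps27rt at 6.38 CPM per kilobase. Genes that overlap Rpl36al and Rpl23a hold 59.5% and 32.9% of their 50-base stretches. Whether this lowered their counts was not tested. The level moved with sequence that other genes also hold. The 9 members with under 20% of their 50-base stretches elsewhere had a median of 265 CPM per kilobase, the 37 with 20 to 60% one of 101 and the 36 with 60% or more one of 34.0. Across the 82 members, which share libraries and depth, Spearman's rho between level and shared percentage was -0.48. Rps27, with 98.6% shared, had 234 counts in all 12 libraries together (10.9 CPM per kilobase), and Rps3, with 2.96%, had 16477 (265 CPM per kilobase). Single members departed from this order. Rps2, with 79.0% shared, averaged 835 CPM per kilobase and Rps27l, with 22.4%, averaged 39.7. The 4 members not tested were Rpl10l and Rpl39l, paralogs known from testis, at 0 counts in every library, the muscle paralog Rpl3l at 2 counts in all, and Rpl24 at 0 to 9 counts per library, which overlaps Gm28037 and shares sequence with it.

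In co-culture on nanotopography, against isolated cells on that surface, ribosomal protein genes were mostly lower. Of the 82 tested members, 4 rose, 52 fell and 26 were not called; over all genes 28.7% rose and 30.4% fell. The median log2 fold change of the members was -0.62, beside 0.00 for all tested genes. The 60S members had 4 increases, 31 decreases and 13 uncalled among 48 (median -0.66) and the 40S members 0 increases, 20 decreases and 13 uncalled among 33 (median -0.47). Of all members tested, 27 fell by more than 2-fold, against 12.7% of all genes. All 3 co-culture libraries lay below all 3 isolated ones for 56 members, beside 32.9% of all genes. They lay above for 5, beside 31.4%. The heat map of members by library shows the change in all 3 co-culture libraries on nanotopography, most of all in replicate 1.

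**Figure D2:**
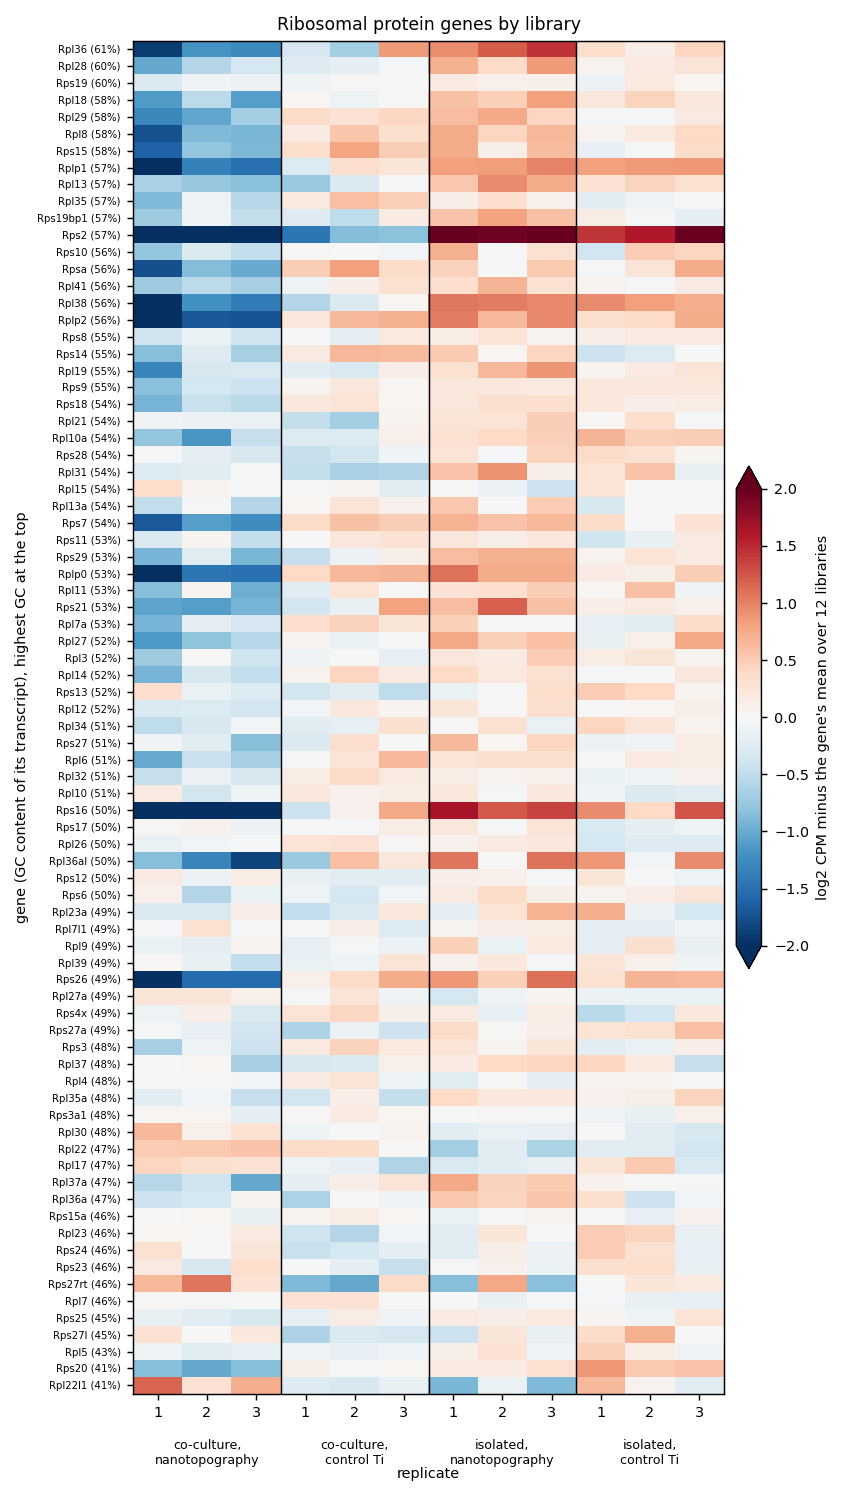
Each row is 1 of 80 tested ribosomal protein genes, ordered by the GC content of its transcript, and each column 1 library; colour is log2 CPM minus the gene's mean over the 12 libraries. Blue cells in the 3 left columns, co-culture on nanotopography, crowd towards the top, where GC content is highest; Rps2 is low in both co-culture groups.

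The largest decrease was that of Rps2 (chr17:24718116-24721929), a 40S protein at the entry of the messenger RNA channel. It had 37.9, 63.2 and 51.6 CPM in co-culture on nanotopography, against 1783, 1343 and 1646 CPM in isolated cells on nanotopography, in raw counts 268, 498 and 340 against 10605, 9149 and 9695. No value of one group came near the other (log2 fold change -4.96 ± 0.22, adjusted p = 4.27e-11). Rps16, whose tail reaches the tRNA in the peptidyl site, had 0.991, 1.02 and 1.06 CPM in co-culture on nanotopography, against 21.5, 15.9 and 17.3 CPM in isolated cells on nanotopography (log2 fold change -4.13 ± 0.36, adjusted p = 8.57e-08; copies added -1.19). All 3 co-culture libraries held about 1 CPM. Rpl36al, a rarely counted paralog of Rpl36a, had 3 counts in the 3 co-culture libraries and 27 in the 3 isolated ones, a ratio, scaled by library size, of 0.0963 (95% counting interval 0.0187 to 0.313). The interval covers counting error only. Rpl36, a 60S protein, had 1.27, 2.28 and 2.13 CPM in co-culture on nanotopography, against 10.8, 13.2 and 15.4 CPM in isolated cells on nanotopography (log2 fold change -2.78 ± 0.35, adjusted p = 4.80e-06; GC-adjusted -1.31). Its values were low in all libraries and did not overlap between the groups. Rps26, at the exit of the messenger RNA channel, had 14.7, 24.1 and 24.3 CPM in co-culture on nanotopography, against 129, 98.5 and 152 CPM in isolated cells on nanotopography (log2 fold change -2.59 ± 0.21). Rpl38, which mouse mutants show to be needed for the translation of Hox messenger RNAs, had 3.82, 7.24 and 6.38 CPM in co-culture on nanotopography, against 36.0, 35.4 and 33.8 CPM in isolated cells on nanotopography (log2 fold change -2.58 ± 0.20; GC-adjusted -1.59; copies added -0.92). Both fell to a level that no isolated library approached.

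Of the structural groups listed, the stalk had the largest median change. All 4 stalk members fell, beside 30.4% of all genes, with a median of -2.57 (GC-adjusted -1.74). Rplp0 (chr5:115559467-115563727), the stalk's base and a common reference gene in quantitative PCR, had 211, 346 and 334 CPM in co-culture on nanotopography, against 1988, 1578 and 1577 CPM in isolated cells on nanotopography (log2 fold change -2.53 ± 0.17, adjusted p = 5.87e-09). Rplp1 (chr9:61913284-61914542), which with Rplp2 forms the dimers that bind elongation factors, had 38.4, 94.7 and 85.9 CPM in co-culture on nanotopography, against 428, 434 and 487 CPM in isolated cells on nanotopography (log2 fold change -2.62 ± 0.24, adjusted p = 3.69e-07; GC-adjusted -1.60). Rplp2 (chr7:141447370-141451585) had 15.1, 22.2 and 21.6 CPM in co-culture on nanotopography, against 146, 113 and 141 CPM in isolated cells on nanotopography (log2 fold change -2.76 ± 0.17, adjusted p = 3.25e-09). In each of the 3 genes the groups were far apart, and replicate 1 was the lowest co-culture library. Rpl12, which joins the stalk base to the 60S body, had a smaller log2 fold change of -0.52 ± 0.12 (adjusted p = 0.00116), and GC-adjusted it was -0.23 and not called (adjusted p = 0.0814).

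Other 60S and 40S genes fell by smaller amounts, and a few rose. Rpl8, next to the centre that joins amino acids, had 133, 239 and 236 CPM in co-culture on nanotopography, against 742, 593 and 699 CPM in isolated cells on nanotopography (log2 fold change -1.74 ± 0.18, adjusted p = 5.14e-07; GC-adjusted -0.71). Rpsa, a 40S protein also known as a laminin receptor, had 28.3, 53.2 and 47.8 CPM in co-culture on nanotopography, against 134, 97.6 and 140.0 CPM in isolated cells on nanotopography (log2 fold change -1.52 ± 0.22, adjusted p = 2.10e-05; GC-adjusted -0.79). Both genes were lower in every co-culture library than in any isolated one. Beside 28.7% higher and 30.4% lower over all genes, the 14 tested proteins of the 40S head had 0 increases, 10 decreases and 4 uncalled (median -0.68), the 17 of the body and platform 0 increases, 10 decreases and 7 uncalled (median -0.47), and the 9 around the exit tunnel 1 increase, 4 decreases and 4 uncalled (median -0.29). Rpl5 and Rpl11, which carry the 5S ribosomal RNA and bind MDM2 when ribosome assembly fails, had -0.29 ± 0.14 (not called; GC-adjusted -0.95, adjusted p = 7.93e-07) and -0.93 ± 0.31 (adjusted p = 0.0168; GC-adjusted not called). The GC-adjusted value of Rpl5 uses a reference transcript of 2045 bases at 42.7% GC, of which 894 are coding. Overlapping genes hold 45.3% of its 50-base stretches. Rps6, the target of the S6 kinases, had -0.43 ± 0.20 and Rps27a, made as a fusion with ubiquitin, -0.37 ± 0.18; neither was called. Among the abundant members, Rpl4, which lines the exit tunnel, had 1407, 1405 and 1339 CPM in co-culture on nanotopography, against 1169, 1416 and 1223 CPM in isolated cells on nanotopography (log2 fold change 0.12 ± 0.11, not called). Its values overlapped between the groups. Rpl32, also used as a reference gene, had 620.0, 791 and 681 CPM in co-culture on nanotopography, against 947, 899 and 916 CPM in isolated cells on nanotopography (log2 fold change -0.40 ± 0.11, adjusted p = 0.00404; GC-adjusted -0.05, not called), and Rpl41, the shortest of the proteins, had a log2 fold change of -1.09 ± 0.12 (adjusted p = 1.53e-06).

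The genes that rose with co-culture on nanotopography were Rpl22, Rpl22l1, Rpl30 and Rpl27a. Rpl22 (chr4:152325742-152334071), an RNA-binding 60S protein that mice can live without, had 222, 224 and 231 CPM in co-culture on nanotopography, against 96.3, 135 and 100.3 CPM in isolated cells on nanotopography (log2 fold change 1.03 ± 0.13, adjusted p = 4.38e-06). Its paralog Rpl22l1 (chr3:28805436-28807424), which mouse studies found to be repressed by Rpl22, had 137, 74.0 and 101 CPM in co-culture on nanotopography, against 31.9, 55.0 and 32.9 CPM in isolated cells on nanotopography (log2 fold change 1.37 ± 0.25, adjusted p = 2.10e-04; GC-adjusted 0.78). Both were higher in each co-culture library than in any isolated one on that surface. GC-adjusted, Rpl22 had 1.07, and both were called. Rpl30 and Rpl27a, both 60S proteins, had 0.55 ± 0.13 (adjusted p = 0.00190) and 0.31 ± 0.13 (adjusted p = 0.0451). The call for Rpl27a turned to -0.51 (adjusted p = 0.00157) when its pseudogene copies were added. Of 5 tested genes on the list of ribosomal protein paralogs, 1 rose and 1 fell, beside 28.7% and 30.4% of all genes. The decrease, that of Rpl36al, rests on few counts. Rps27l, a p53 target in mouse and human, had 0.25 ± 0.21, Rpl7l1 -0.03 ± 0.12 and Rps27rt 0.87 ± 0.50, and none of these 3 was called. Of the genes these paralogs pair with, Rps27 fell at -0.79 ± 0.31 (GC-adjusted -0.36, not called), Rpl36a at -0.79 ± 0.28 (copies added 0.47) and Rpl3 at -0.63 ± 0.15 (GC-adjusted -0.34), while Rpl7 at 0.05 ± 0.10, Rpl10 at -0.21 ± 0.15, Rpl39 at -0.29 ± 0.17 and Rps4x at -0.14 ± 0.16 were not called.

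**Figure D3:**
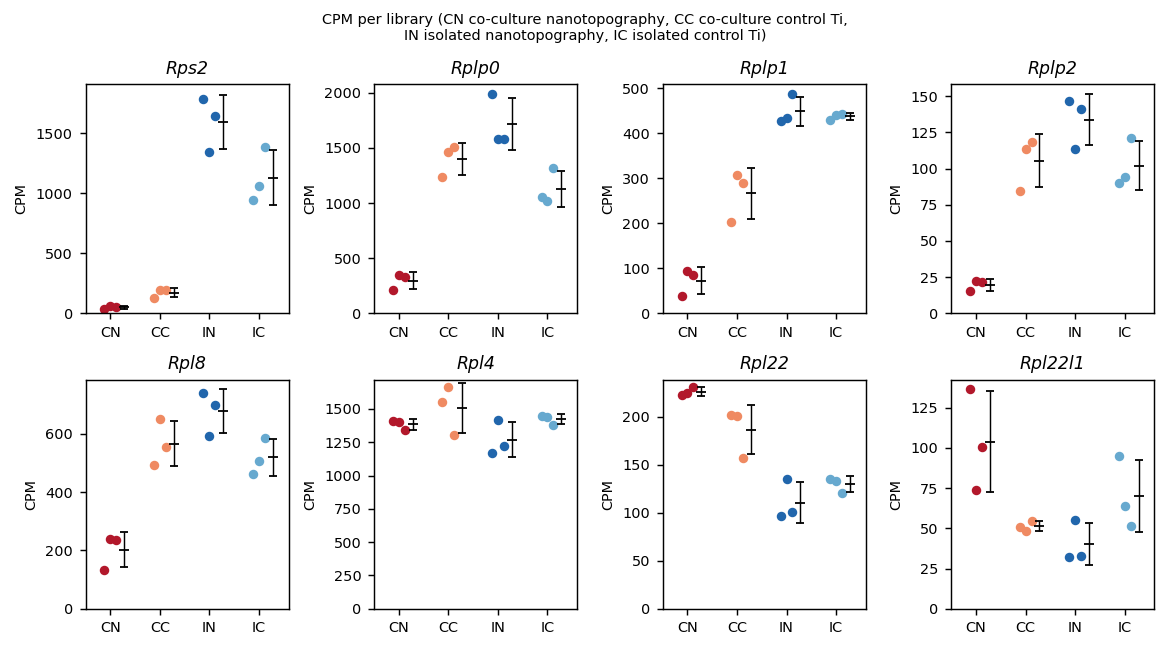
CPM (vertical axis, from 0) of 8 ribosomal protein genes in each library; CN and CC are co-cultures on nanotopography and on control titanium, and IN and IC are isolated cells on the same surfaces; bars are mean ± SD (n = 3). Rps2 is low in both co-culture groups, the stalk genes and Rpl8 are lowest in CN, Rpl4 is level, and Rpl22 is highest in CN.

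Further members of both subunits fell by more than 2-fold. Rps15, in the 40S head and among the most abundant members, had 117, 208 and 192 CPM in co-culture on nanotopography, against 596, 387 and 556 CPM in isolated cells on nanotopography (log2 fold change -1.57 ± 0.20, adjusted p = 5.57e-06; GC-adjusted -0.47). Rps7, a 40S protein that in human cells also binds MDM2, had 11.9, 17.8 and 16.2 CPM in co-culture on nanotopography, against 62.5, 57.4 and 61.3 CPM in isolated cells on nanotopography (log2 fold change -1.98 ± 0.15; copies added -0.02, not called). Its counts lay mostly at copies, 30142 in all against 3694 at the gene. Rps21, of the 40S body, had -1.88 ± 0.25 (copies added -0.91), and Rps29, a zinc-binding protein of the head, -1.40 ± 0.24 (GC-adjusted -0.78). Of the 60S genes, Rpl29 had -1.61 ± 0.14 (GC-adjusted -0.49), Rpl18 -1.57 ± 0.20 (GC-adjusted -0.45, not called), Rpl13 -1.54 ± 0.18 (GC-adjusted -0.59) and Rpl27 -1.53 ± 0.27 on the log2 scale. Rpl28 had -1.36 ± 0.24 (GC-adjusted -0.06, not called), Rpl37a -1.25 ± 0.18, Rpl19 -1.22 ± 0.21 (GC-adjusted -0.54) and Rpl10a -1.20 ± 0.18 (GC-adjusted -0.56; copies added -0.40). Members near zero and not called included Rps3a1 at -0.03 ± 0.10, Rps12 at -0.01 ± 0.14, Rps15a at 0.00 ± 0.10, Rpl7 at 0.05 ± 0.10 and Rpl23 at 0.06 ± 0.18.

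The size of the change followed the GC content of the transcript, as it did over all genes. The 28 members below 49.2% GC had 4 increases, 7 decreases and 17 uncalled and a median of -0.03, the 27 in the middle 0 increases, 19 decreases and 8 uncalled and -0.63, and the 27 above 53.8% 0 increases, 26 decreases and 1 uncalled and -1.22. All tested genes in the same GC ranges had medians of 0.51, -0.19 and -0.78. Over all GC contents 28.7% of all genes rose and 30.4% fell. The shares of all genes called within each range are not given here, so the members' counts per range are not set against them. Spearman's rho between GC content and log2 fold change was -0.65 across the 82 members and -0.73 across all tested genes, which share the same libraries. In each of the 3 ranges the members' median lay below that of all genes. GC-adjusted, 6 members rose and 30 fell, against 17.9% and 21.1% of all genes, with a member median of -0.21 and one of -0.01 for all genes. Rps2 at -4.12, Rps16 at -3.93, Rps26 at -2.48, Rplp0 at -2.14, Rplp2 at -1.87 and Rplp1 at -1.60 were still called lower. Rps9 at -0.06 and Rpl41 at -0.13 were not, and Rps19, mutated in human Diamond-Blackfan anaemia, had -0.29 ± 0.11 as measured (adjusted p = 0.0348) but 0.97 GC-adjusted (adjusted p = 4.61e-07). Whether the trend is technical was not tested.

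**Figure D4:**
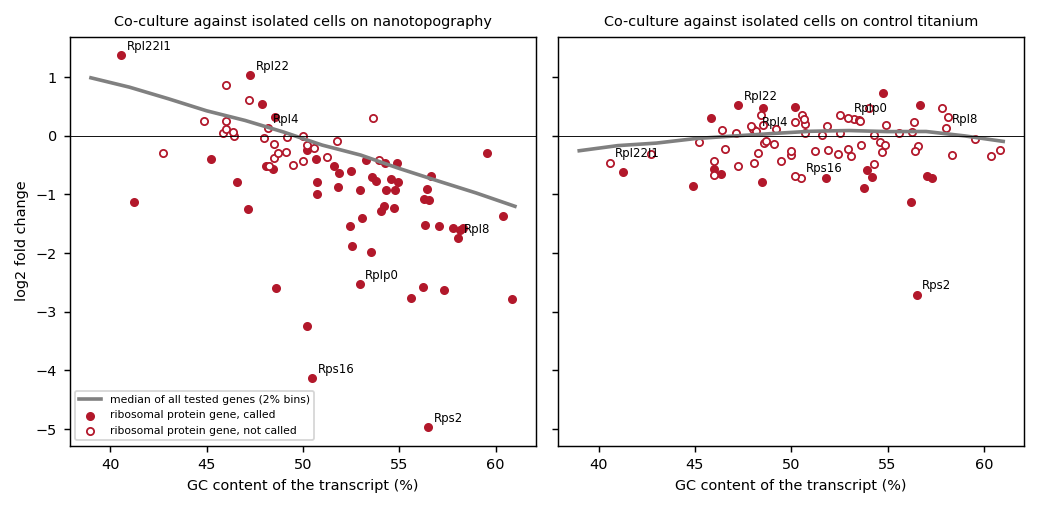
Log2 fold change of co-culture over isolated cells (vertical axis) against the GC content of the transcript (%, horizontal axis) for the 82 tested members on nanotopography (left) and on control titanium (right); filled points are called at an adjusted p below 0.05 and the grey line is the median of all tested genes in bins of 2% GC. On nanotopography the line falls with GC content and most members lie on or below it; on control titanium the line is nearly flat and Rps2 lies at -2.71.

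Pseudogene copies held many of the counts, and for some members their direction differed from that of the gene. Gm11478, a copy of Rpl13a, had 173151 counts in all against 3203 at Rpl13a itself, Gm15500, a copy of Rpl5, had 90675 against 2925, and Rpl14-ps1 had 76478 against 9163 at Rpl14. Genes that overlap Rpl13a and Rpl5 hold 57.4% and 45.3% of their 50-base stretches. Whether this lowered the counts at these 2 genes was not tested. In co-culture on nanotopography the copies Gm8730 and Gm9625 of Rplp0 averaged 56.5 ± 19.5 and 236 ± 35.4 CPM, against 569 ± 58.8 and 602 ± 83.0 CPM in isolated cells there (mean ± SD, n = 3). Both fell with the gene, at -3.33 ± 0.25 and -1.35 ± 0.15. Gm15500 rose by 0.70 ± 0.16 (adjusted p = 9.49e-04). With the counts of the copies added to each gene, 6 of the same 82 members rose and 50 fell, against 28.6% and 30.7% of all genes, with a median of -0.58. Rps2 at -4.61, Rplp2 at -2.77, Rplp1 at -2.63, Rps26 at -2.58 and Rplp0 at -2.30 remained called lower. Rps16 moved to -1.19, Rpl36al to -0.49, Rps7 to -0.02 (not called) and Rps20 to 0.07 (not called), while Rpl5 became 0.66 and Rpl36a 0.47, both called higher. These sums were added after the data had been seen.

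**Figure D5:**
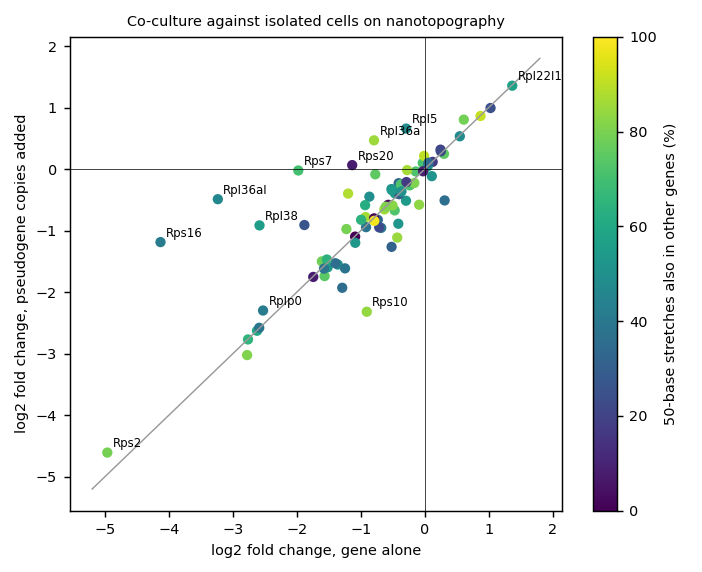
Log2 fold change of co-culture over isolated cells on nanotopography for each tested member alone (horizontal axis) and with the counts of its pseudogene copies added (vertical axis); colour is the percentage of 50-base stretches also found in other genes and the line marks equal values. Most members lie near the line; Rps16, Rpl36al, Rpl38, Rps7 and Rps20 lie above it and Rps10 below.

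For 9 members less than 20% of the 50-base stretches occur elsewhere, though some of them still have copies with counts. The percentage is taken over the whole reference transcript, which can be far longer than the coding part. For Rps20 it has 3706 bases with 360 coding, and for Rps24 1613 with 402. Copies of Rps20 held 12822 counts in all, against 4493 at the gene. The GC-adjusted value of each gene uses the GC content and length of its reference transcript. That of Rps3 has 1908 bases with 732 coding, and that of Rps16 1109 with 441. In co-culture on nanotopography 5 of the 9 members fell and 0 rose, beside 30.4% and 28.7% of all genes, with a median of -0.57 (GC-adjusted 3 fell, median -0.15). Rps3, at the entry of the messenger RNA channel, had 119, 176 and 143 CPM in co-culture on nanotopography, against 228, 197 and 225 CPM in isolated cells on nanotopography (log2 fold change -0.57 ± 0.14, adjusted p = 0.00173), and -0.70 GC-adjusted (adjusted p = 3.94e-04). Its groups did not overlap. Rpl8 fell by the most, and its GC-adjusted value was -0.71 (adjusted p = 1.23e-05). Rps20, in the 40S head, had -1.13 ± 0.12 (GC-adjusted -1.97; copies added 0.07, not called), and Rps19bp1 -1.09 ± 0.20 (GC-adjusted -0.22, not called). Rpl4, Rpl39, Rpl7l1 and Rps24 had 0.12 ± 0.11, -0.29 ± 0.17, -0.03 ± 0.12 and 0.25 ± 0.15, and none was called. Leaving out any 1 library gave 48 to 55 called members. The shares of all genes called in those fits are not given here, so this range is not set against them.

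In co-culture on control titanium, against isolated cells on that surface, few ribosomal protein genes were called. Of the 82, 6 rose, 13 fell and 63 were not called, against 11% and 8.76% of all genes that rose and fell. The members called make up 23.2%, near the 19.8% of all genes. The median was -0.13, beside -0.02 for all tested genes. GC-adjusted, 10 rose and 15 fell, against 14.8% and 11.7%. Rps2 stood apart with 129, 191 and 199 CPM in co-culture on control titanium, against 946, 1062 and 1383 CPM in isolated cells on control titanium (log2 fold change -2.71 ± 0.19, adjusted p = 6.76e-08; GC-adjusted -2.74; copies added -2.55). The next lowest were Rpl38, with 11.3, 13.9 and 17.7 CPM in co-culture on control titanium, against 33.5, 30.7 and 28.5 CPM in isolated cells on control titanium (log2 fold change -1.12 ± 0.18; copies added -0.56), and Rpl31, near the tunnel exit, with 4.75, 4.18 and 4.36 CPM in co-culture on control titanium, against 8.20, 10.1 and 6.04 CPM in isolated cells on control titanium (log2 fold change -0.89 ± 0.24). In both the co-culture libraries lay below the isolated ones, as they did for 17 of the 82 members and 17.3% of all genes. Rps27l had -0.85 ± 0.21 (adjusted p = 0.00820).

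Of the genes that rose there, Rps14, a 40S platform protein whose loss underlies the anaemia of the human 5q deletion, had 151, 211 and 207 CPM in co-culture on control titanium, against 100.1, 110.4 and 133 CPM in isolated cells on control titanium (log2 fold change 0.73 ± 0.17, adjusted p = 0.00521). Rpl35, at the tunnel exit, had 0.53 ± 0.17 (copies added 0.26, not called), Rpl22 0.52 ± 0.13 and Rpl26, which also binds the p53 messenger RNA, 0.49 ± 0.10; the smallest were Rps4x at 0.48 ± 0.16 (GC-adjusted 0.49, not called; copies added 0.45, not called) and Rpl7 at 0.31 ± 0.10 (copies added 0.28, not called). The groups did not overlap for Rps14, Rpl35, Rpl22 and Rpl26. All co-culture libraries lay above all isolated ones for 14 of the 82 members, beside 18.8% of all genes. Of the stalk, Rplp1 was lower, with 202, 308 and 289 CPM in co-culture on control titanium, against 429, 441 and 444 CPM in isolated cells on control titanium (log2 fold change -0.72 ± 0.22, adjusted p = 0.0344), while Rplp0 at 0.31 ± 0.16 and Rplp2 at 0.05 ± 0.16 were not called. The count of called members was 10 without co-culture control replicate 1, 11 without co-culture control replicate 2, 11 without isolated control replicate 1 and 9 without isolated control replicate 2. The shares of all genes called in those fits, and with upper-quartile scaling, are not given here, so these counts are not set against them. With upper-quartile scaling the split was 4 higher and 15 lower, and with copies added the same 82 members had 11 higher and 12 lower, against 11% and 8.79% of all genes, with a median of 0.04. The sign of the median thus depends on the copies.

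Nanotopography against control titanium, both in co-culture, also gave mostly lower values. The comparison shares the co-culture libraries on nanotopography with the one against isolated cells. Of the 82 members, 6 rose, 37 fell and 39 were not called, against 18.6% and 23.4% of all genes, and the median was -0.40, beside -0.02. GC-adjusted, 7 rose and 26 fell, against 7.6% and 10.9% of all genes, with a member median of -0.18. Rplp0 had 211, 346 and 334 CPM in co-culture on nanotopography, against 1233, 1464 and 1507 CPM in co-culture on control titanium (log2 fold change -2.24 ± 0.17, adjusted p = 4.29e-07; GC-adjusted -1.95). Rplp2 had 15.1, 22.2 and 21.6 CPM in co-culture on nanotopography, against 84.5, 113 and 119 CPM in co-culture on control titanium (log2 fold change -2.42 ± 0.17, adjusted p = 3.29e-07; GC-adjusted -1.88). Both genes fell to a level below all 3 co-culture libraries on control titanium. Rps16 had 0.991, 1.02 and 1.06 CPM in co-culture on nanotopography, against 4.86, 7.11 and 11.4 CPM in co-culture on control titanium (log2 fold change -2.88 ± 0.39, adjusted p = 5.09e-05; copies added -0.78), and Rpl36al 3 against 18 counts, a ratio, scaled by library size, of 0.179 (95% counting interval 0.0337 to 0.612). With copies added, Rpl36al had 0.16 (adjusted p = 0.448).

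The genes that rose in this comparison were Rps27rt at 1.31 ± 0.51, Rpl22l1 at 1.02 ± 0.24, Rpl17 at 0.65 ± 0.25, Rps27l at 0.61 ± 0.21, Rps24 at 0.52 ± 0.15 and Rpl30 at 0.38 ± 0.13 on the log2 scale. Rps27rt rests on few counts, 17, 26 and 12 on nanotopography against 6, 4 and 13 on control titanium. Its CPM values overlapped between the groups, and 91.1% of its 50-base stretches occur elsewhere. Rpl22l1 had 137, 74.0 and 101 CPM in co-culture on nanotopography, against 50.5, 48.5 and 54.6 CPM in co-culture on control titanium (adjusted p = 0.00410). Rps24, a 40S protein mutated in human Diamond-Blackfan anaemia, had 106, 85.9 and 101 CPM in co-culture on nanotopography, against 62.6, 67.2 and 75.3 CPM in co-culture on control titanium (adjusted p = 0.0108). The groups were apart for both. GC-adjusted, Rpl22l1 at 0.48 and Rpl30 at 0.32 were called and Rps27rt, Rpl17, Rps27l and Rps24 were not. Rpl22, the paralog, had 0.28 ± 0.13 and was not called (adjusted p = 0.0871).

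In isolated cells few of these genes were called between the surfaces. On nanotopography against control titanium 8 rose, 2 fell and 72 were not called, against 4.48% and 5.62% of all genes (10.1% in all), with a median of 0.16, beside 0.01. Rpl36 had 10.8, 13.2 and 15.4 CPM in isolated cells on nanotopography, against 7.16, 6.05 and 7.55 CPM in isolated cells on control titanium (log2 fold change 0.93 ± 0.29, adjusted p = 0.0498; GC-adjusted 0.59, not called). Rplp0 had 1988, 1578 and 1577 CPM in isolated cells on nanotopography, against 1052, 1020.4 and 1318 CPM in isolated cells on control titanium (log2 fold change 0.60 ± 0.16, adjusted p = 0.0296; GC-adjusted 0.45). The values did not overlap in either gene. On nanotopography all 3 libraries lay above all 3 on control titanium for 25 members, beside 15.3% of all genes. They lay below for 1, beside 14.5%. Rps19bp1 had 0.69 ± 0.19 (GC-adjusted 0.43, not called) and Rpl29, a 60S protein that also binds heparin, 0.58 ± 0.14 (GC-adjusted 0.30, not called). The 2 that fell were Rpl22l1 at -0.81 ± 0.25 (adjusted p = 0.0491; GC-adjusted -0.43, not called), with values that overlapped between the groups, and Rps20 at -0.44 ± 0.11 (adjusted p = 0.0267; GC-adjusted 0.00, not called; copies added -0.29, not called). The count moved with the processing: 3 members were called GC-adjusted, against 5.31% of all genes, 17 with no low-count filter, and with RLE scaling the split was 10 higher and 1 lower. Without isolated nano replicate 1, isolated nano replicate 3, isolated control replicate 1 or isolated control replicate 2 edgeR called 0 members, with 17 to 19 at an unadjusted p under 0.05 and 1 to 4 called by DESeq2. Of all genes edgeR called 67, 3, 2 and 46 in that order. The count was 16 without isolated nano replicate 2, 6 without co-culture control replicate 2 and 5 without co-culture nano replicate 3. The shares of all genes called in these last fits, with no filter and with RLE scaling are not given here.

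The interaction term tests whether the difference between co-culture and isolated cells differed between the surfaces. It is the log2 fold change with co-culture on nanotopography minus that on control titanium. Of the 82 members, 6 had a higher and 42 a lower value on nanotopography, against 22.5% and 25.4% of all genes, with a median of -0.62, beside -0.05. GC-adjusted, the counts were 6 and 25, against 8.41% and 13% of all genes. The stalk genes Rplp0 at -2.84 ± 0.23 (adjusted p = 2.73e-06) and Rplp2 at -2.81 ± 0.23 (adjusted p = 2.73e-06) were not called with co-culture on control titanium and fell on nanotopography. Rps2 fell on both surfaces and further on nanotopography, with an interaction of -2.25 ± 0.27 (adjusted p = 3.83e-05). Rps15, a 40S head protein that was not called on control titanium, had -2.05 ± 0.28 (adjusted p = 8.25e-05; GC-adjusted -1.06). Rpl22l1 had 1.83 ± 0.34, the highest value of all members, Rpl17, in the exit tunnel, 1.12 ± 0.37 (GC-adjusted 1.00, not called), Rps27l 1.10 ± 0.30, Rps24 0.82 ± 0.21 (GC-adjusted 0.46, not called), Rpl23 0.71 ± 0.25 (GC-adjusted 0.47, not called; copies added 0.64, not called) and Rpl22 0.51 ± 0.18 (GC-adjusted 0.41, not called). GC-adjusted, the values were -2.40 for Rplp0, -1.99 for Rplp2, -1.38 for Rps2 and 0.92 for Rpl22l1.

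Fau and Rack1, which the rule left out, also fell in co-culture on nanotopography. Fau, whose product carries a 40S protein, had -2.30 ± 0.24 (adjusted p = 6.63e-07; GC-adjusted -1.17) and Rack1, a scaffold on the 40S head, -0.91 ± 0.17 (adjusted p = 2.16e-04; GC-adjusted -0.74). On control titanium Fau at -0.33 ± 0.20 and Rack1 at 0.41 ± 0.17 were not called.

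Other genes known for an oligopyrimidine tract were also followed. Counts for this list and those below are not GC-adjusted, though fold changes on nanotopography followed GC content over all genes. In co-culture on nanotopography the 20 translation factors and related genes of this kind had 6 increases, 11 decreases and 3 uncalled (median -0.38), beside 28.7% higher and 30.4% lower over all genes. On control titanium they had 3 increases, 2 decreases and 15 uncalled, beside 11% and 8.76% of all genes (median 0.20). Tpt1, an abundant growth-related protein, had -2.96 ± 0.22 on nanotopography (adjusted p = 2.32e-08; GC-adjusted -2.54) and -1.45 ± 0.20 on control titanium (adjusted p = 9.04e-05). Like Rps2, it was lower with co-culture on both surfaces. The elongation factor gene Eef2 had -1.46 ± 0.16 on nanotopography (GC-adjusted -0.74), and Hnrnpa1, which encodes an RNA-binding protein, 1.37 ± 0.18 (GC-adjusted 0.97). The 28 initiation factors had 9 increases, 12 decreases and 7 uncalled on nanotopography (median -0.10), against the same shares of all genes, among them Eif4a2 at 1.41 ± 0.13 (GC-adjusted 0.77) and Eif6, which keeps the subunits apart, at -1.54 ± 0.17 (GC-adjusted -0.62). On control titanium they had 5 increases, 1 decrease and 22 uncalled, against 11% and 8.76% of all genes, with Eif3c at 0.84 ± 0.12.

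The counts for genes that build ribosomes are read against 28.7% higher and 30.4% lower over all genes. With co-culture on nanotopography, small subunit biogenesis had 8 increases, 11 decreases and 19 uncalled among 38 (median -0.03), large subunit biogenesis 10 increases, 16 decreases and 14 uncalled among 40 (median -0.23), nucleolar and ribosomal RNA processing genes 8 increases, 7 decreases and 5 uncalled among 20 (median 0.22), and RNA polymerase I with its factors 4 increases, 5 decreases and 5 uncalled among 14 (median -0.21). Bysl, needed for 40S maturation, had -1.77 ± 0.15 (GC-adjusted -1.41), Bop1, needed for 60S maturation, -1.82 ± 0.18 (GC-adjusted -0.97), and the nucleolar genes Npm1 and Ddx10 0.98 ± 0.12 and 1.08 ± 0.12 (GC-adjusted 0.34 and 0.41). Whether the decrease differed between these lists and the members was not tested. On control titanium, beside 11% higher and 8.76% lower over all genes, 2 small subunit and 6 large subunit biogenesis genes rose and 1 and 2 fell, as did 1 of the nucleolar list, in which 2 rose. Of the polymerase list 1 gene rose and 0 fell.

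Of 20 genes of mTORC1, MYC and LARP1 signalling, co-culture on nanotopography had 5 increases, 13 decreases and 2 uncalled (median -0.43), beside 28.7% higher and 30.4% lower over all genes. GC-adjusted counts of this list are not given here. Myc, a driver of ribosome production, had -1.52 ± 0.14 (adjusted p = 1.31e-07; GC-adjusted -0.55) and, on control titanium, -0.61 ± 0.13 (adjusted p = 0.00348; GC-adjusted -0.60). It was thus lower with co-culture on both surfaces. Tsc1, an inhibitor of mTORC1, had 0.76 ± 0.10 on control titanium (adjusted p = 3.63e-05). Of 12 tested genes that respond to faults in ribosomes, 4 rose and 7 fell on nanotopography (median -0.33), against the same shares of all genes. Mdm2, the inhibitor of p53 that free Rpl5 and Rpl11 bind, had 1.28 ± 0.13 (adjusted p = 4.89e-07; GC-adjusted 0.93), and 0.41 ± 0.13 on control titanium (adjusted p = 0.0303). Pelo, which frees stalled ribosomes, had -2.57 ± 0.31 (GC-adjusted -1.67).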

How the data were processed

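RNA of MC3T3-E1 cells was sequenced in 12 libraries, 3 in each of 4 groups. Per the labels' protocols, RNA was taken at day 7 with TRIzol and libraries were made with a SMARTer kit. The values are gene counts as the authors deposited them. Per the submitters' processing notes, the tools were cutadapt, FastQC 0.63, STAR 2.4, HTSeq and DESeq2, with build mm10; the strand setting and the handling of reads with several alignments are not given in the sources used here. The deposited table of 11 libraries ends within a line, so the 52654 genes complete in all were used, which keeps at least 99.924% of each library's counts. Ensembl IDs were matched to GENCODE M21 without their version.

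Counts were scaled by TMM and tested with edgeR 4.0.16 (R 4.3.3, robust quasi-likelihood fit over all 4 groups, default low-count filter), adjusted by Benjamini-Hochberg over all 13340 genes at 0.05. The approximate standard error is the fold change on the log2 scale over the root of F. The coefficient of variation between replicates was 12.3%, and 3 libraries a group limit the precision. GC-adjusted fits carry loess trends (span 0.3) as offsets. Shared sequence is the percentage of a transcript's 50-base stretches found in other genes; copies are annotated pseudogenes elsewhere that share such a stretch, each given to the member it shares most with. Alternatives were other scalings and filters, DESeq2 1.42.0, limma-voom 3.58.1, the compared groups alone, a replicate block, GC and length trends, and each library left out. The test was also run on simulated counts, with the same dispersion for all genes. A linear GC trend was put into co-culture on nanotopography or left out. No length trend and no reads shared with copies were simulated, and the outcome is not given here.

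The members and gene lists were chosen with earlier results of these data known. Genes named by rule are the 4 highest and 4 lowest called members of each comparison, the 5 most and 3 least abundant, the stalk genes, Rpsa, Rps6, Rps27a, Rpl5, Rpl11, the paralog pairs, called members against the majority and, of other lists, up to 4 with the smallest p; other genes named were chosen after their values were seen. Values of some genes are not reported here.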

Additional observations from a re-analysis of the deposited data

Results flagged for a closer look

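In edgeR's test of the interaction, the response to co-culture differed between the surfaces for 48 of 82 ribosomal protein genes at an adjusted p under 0.05, where 22.5% of all genes tested were called higher and 25.4% lower. The difference is given as the log2 fold change with co-culture on nanotopography minus that on control titanium. Of the members named by rule, those lower on nanotopography were Rps16 (-3.42), Rplp0 (-2.84), Rplp2 (-2.81), Rpl36al (-2.56), Rpl36 (-2.54), Rps2 (-2.25), Rps15 (-2.05), Rpl29 (-1.93), Rplp1 (-1.90), Rpsa (-1.75), Rps14 (-1.65), Rpl38 (-1.46), Rpl35 (-1.21), Rpl41 (-1.15), Rps19bp1 (-0.92), Rpl26 (-0.72), Rpl32 (-0.68), Rps4x (-0.62), Rpl10 (-0.56) and Rps20 (-0.52). Those higher were Rpl22l1 (1.83), Rpl17 (1.12), Rps27l (1.10), Rps24 (0.82), Rpl23 (0.71) and Rpl22 (0.51). The values of Rpl36al rest on few counts, and its sign turned when counts of pseudogene copies were added. The part of GC content in these differences was not tested beyond the GC-adjusted fits.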

How the results depend on the processing

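For co-culture on nanotopography, 48 to 55 members were called when any 1 library was left out (median log2 fold change -0.72 to -0.57), 36 were called with GC and length trends removed (median -0.21), 36 with the trends of the other genes (-0.22), 36 with trends and replicate block (-0.21), and the median was -0.19 with copies added and trends removed. For co-culture on control titanium the range was 9 to 23 (-0.19 to -0.022); with copies added, when 83 members were tested, the median turned to 0.02, and with trends removed as well to 0.055 with 31 called. For nanotopography in isolated cells the range was 0 to 16 (0.14 to 0.20); the count was 17 with no filter, 3 with trends removed (median 0.0501), 3 with those of the other genes (0.0511), 2 with the block added (0.0497) and 5 with copies added and trends removed (0.0494). At the 4 omissions that left 0, edgeR had 17 to 19 members at an unadjusted p under 0.05 and DESeq2 called 1 to 4. There edgeR called only 2 to 67 of all genes. For nanotopography in co-culture the range was 34 to 45 (-0.47 to -0.33), and the 4 settings with trends removed gave medians of -0.18, -0.18, -0.18 and, with copies, -0.22. For the interaction the range was 42 to 50 (-0.73 to -0.55); trends removed gave 31 (-0.24), those of the other genes 31 (-0.25), the block -0.26 and copies -0.29. Apart from those 4 omissions, the shares of all genes called in each setting are not given in this section. The counts of called members are therefore not read against them. The cause was not tested.

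The members' share of the library was 0.754, 1.15, 1.37 and 1.21% without mitochondrial genes, Gm26917 and Gm42418, and 0.797, 1.21, 1.43 and 1.27% of protein-coding counts, for co-culture on nanotopography, co-culture on control titanium, isolated cells on nanotopography and isolated cells on control titanium. Leaving out a replicate gave 0.615 to 0.701%, 0.997 to 1.08%, 1.18 to 1.22% and 1.01 to 1.09% in that order. Single genes turned sign with copies added: Rpl27a (-0.51, and -0.50 with trends removed), Rpl5 (0.66) and Rpl36a (0.47 and 0.43) in co-culture on nanotopography; Rpl41 (-0.30), Rps6 (0.46 and 0.46) and Rpl36a (0.28) in co-culture on control titanium; Rps20 (0.14) between surfaces in isolated cells; Rpl36al between surfaces in co-culture (0.16 and 0.25) and in the interaction (0.12 and 0.32). Rpl5 turned to -0.76 in the interaction in all 3 fits with trends removed. With the replicate block 19, 54, 7, 41 and 48 members were called for co-culture on control titanium, co-culture on nanotopography, nanotopography in isolated cells, nanotopography in co-culture and the interaction. Whether the numbers pair the samples cannot be told from 3 replicates a group. Of 18 same-numbered pairs, 6 had a correlation of their deviations over 0.1 (range -0.39 to 0.30). Between the co-culture groups same-numbered pairs had 0.30, 0.13 and 0.081, and different-numbered ones -0.24 to 0.11. Between other groups same-numbered pairs had both signs. Rpl24, Rpl3l, Rpl10l and Rpl39l had too few counts to be tested.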
